A study of Mus musculus with 12 samples.

Results

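Aquaporins are small membrane proteins whose pores let water cross a cell membrane along an osmotic gradient. The classical members, among them Aqp1, Aqp4 and Aqp8, conduct mainly water, the aquaglyceroporins Aqp3, Aqp7 and Aqp9 also pass glycerol, and Aqp11 belongs to a divergent branch found largely in the endoplasmic reticulum. In the large bowel, where stool is dried, Aqp8 lies mainly in surface absorptive cells, Aqp4 in the basolateral membrane of epithelial cells and Aqp1 in the endothelium of small vessels and in red blood cells.

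The 7 genes described here (Aqp1, Aqp3, Aqp4, Aqp7, Aqp8, Aqp9 and Aqp11) were chosen by their symbols, without use of their values, from the 17734 genes of the deposited expression table. RNA was sequenced from the large bowel, described as colorectum by the labels and as rectal tissue by the study's methods, of 12 male C57BL/6 mice aged 8 to 10 weeks. They formed 4 groups of 3. Normal mice drank water, and colitis mice drank 2.5% dextran sulfate sodium (DSS), a polymer that injures the bowel lining, for 7 days. The normal mice receiving BBR and the colitis mice receiving BBR were given berberine (BBR), a plant alkaloid, by gavage at 100 mg/kg, for 6 days by the labels and 7 days by the study's methods. The comparisons ask how the channels differ in colitis, and whether BBR moves them in diseased and in healthy bowel. DSS injury strips epithelium and draws in inflammatory cells, and in such bulk tissue fewer cells of a type and less RNA per cell cannot be told apart.

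The values are in FPKM, fragments scaled to transcript length and to sequencing depth, so levels can be set side by side between genes. The unit was read from the values, and TPM remains possible. The mice numbered 4, 1 in each group, stood apart from the other 8. Their columns summed to 482194 to 504337, against 696286 to 765876, and 736 of 15315 tested genes (4.81%) were higher in all 4 of them than in the other 8 and 449 (2.93%) lower. Genes at 0 numbered 872 to 1086 in them and 1332 to 1926 in the others. Low values fitted steps best with 25 to 75 bases taken off the transcript length for the mice numbered 4, against 225 to 300 bases for the other 8, so the length correction in FPKM may differ between these sets. Depth, estimated from the steps between low values, was about 17470000 to 20200000 reads in the mice numbered 4 and 14930000 to 15560000 reads in the others. Epithelial markers summed to 9665 to 16540 FPKM over the 12 mice, with Lgals4, a galectin of gut epithelium, as the highest, and squamous markers to at most 8.44 FPKM, led by Krt13, a squamous keratin. Log2 differences of the 4 expressed members between groups are given over all mice of the groups, then within the mice numbered 1 to 3 and between the mice numbered 4.

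The promoters of the 3 members that lead the comparisons below are shown as the 250 bases before the gene start, 5′ to 3′ on the gene's strand, from RefSeq's annotation of GRCm38.p6. The expression table was made on mm9, so no coordinate was taken from it. Of the 7 members, 6 had a promoter in the RefSeq table. Capitals mark the GC box GGGCGG, a binding motif of Sp1-type factors.
Aqp8, chr7:123462044-123462293, plus strand: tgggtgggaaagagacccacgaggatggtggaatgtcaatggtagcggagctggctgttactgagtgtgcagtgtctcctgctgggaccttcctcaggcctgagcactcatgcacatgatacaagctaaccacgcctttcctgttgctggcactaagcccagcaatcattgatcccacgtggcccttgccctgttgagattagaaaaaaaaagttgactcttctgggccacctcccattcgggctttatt
Aqp1, chr6:55336049-55336298, plus strand: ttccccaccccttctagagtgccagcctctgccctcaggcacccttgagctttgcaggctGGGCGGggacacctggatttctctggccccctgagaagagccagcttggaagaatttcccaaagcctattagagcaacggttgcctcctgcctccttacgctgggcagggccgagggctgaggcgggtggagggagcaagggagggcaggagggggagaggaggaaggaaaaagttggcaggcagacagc
Aqp11, chr7:97738248-97738497, minus strand: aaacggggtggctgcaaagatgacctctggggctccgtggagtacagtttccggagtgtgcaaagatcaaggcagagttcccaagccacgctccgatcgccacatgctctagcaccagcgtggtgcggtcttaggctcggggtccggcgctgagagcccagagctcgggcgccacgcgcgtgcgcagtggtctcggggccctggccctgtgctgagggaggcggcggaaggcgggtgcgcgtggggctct
Each promoter was searched on both strands for the GC box, TATAAA (the TATA box), TGGAAA (the core of the tonicity element), TTTATG (a site of the intestinal factor CDX2) and CAAAGT (part of the site of HNF4). No pair of these motifs overlapped in the sequences shown. The Aqp1 promoter held 1 match, a GC box that begins at position -190 from the gene start, and the Aqp8 and Aqp11 promoters held none of the 5 motifs. Over all 27025 promoters of this length the GC box was found in 32.9%, TATAAA in 13.0%, TGGAAA in 18.7%, TTTATG in 11.1% and CAAAGT in 12.5%. The G and C content was 62.0% for Aqp1, 67.2% for Aqp11 and 52.4% for Aqp8, against a median of 52.0%.

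Aqp8 was the dominant aquaporin transcript in every mouse. It ranked between 28 and 297 of the 17734 genes by FPKM, and made up 52.8 to 99.1% of the summed aquaporin FPKM of a mouse, with a median of 86.8%. Aqp4 came next, at rank 348 to 3206 and with a share of 0.66 to 44.5% (median 9.94%). Aqp8 lay above Aqp4 in 12 of 12 mice, and Aqp4 above Aqp1 in 12 of 12. Aqp1 and Aqp11 could not be ordered, since Aqp1 was the higher in 6 of the 12. Aqp3, Aqp7 and Aqp9 stayed at or below 0.38 FPKM in every mouse.

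**Figure D1:**
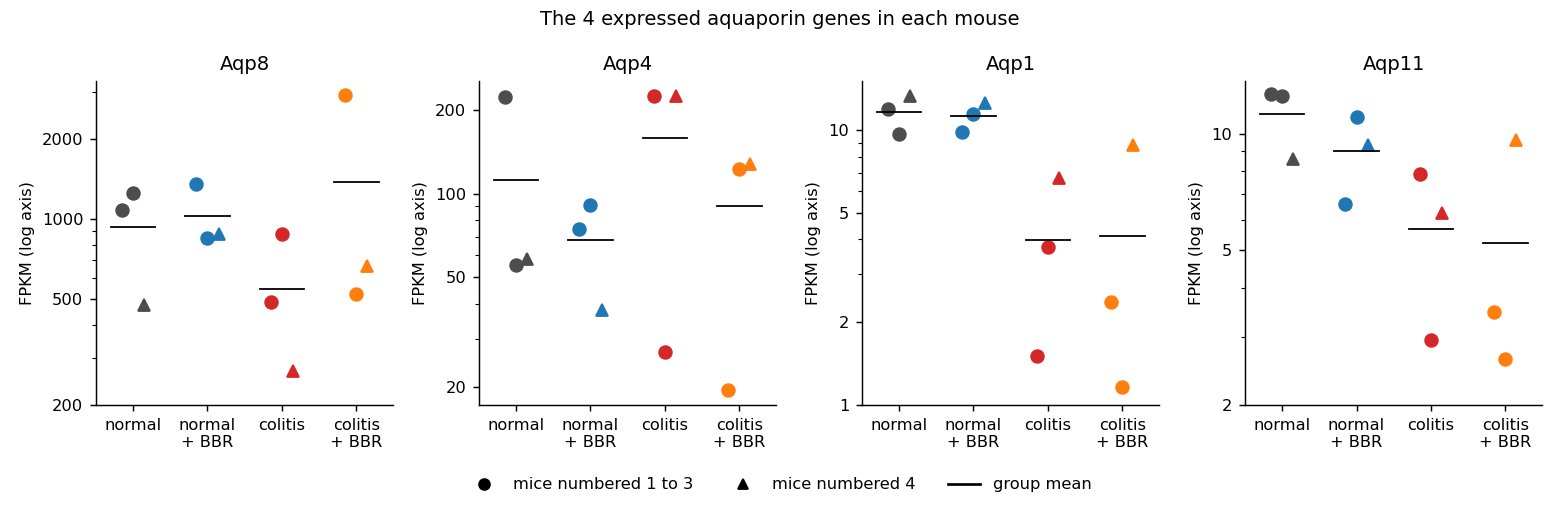
FPKM on log axes of Aqp8, Aqp4, Aqp1 and Aqp11 in each of the 12 mice, by group, with circles for the mice numbered 1 to 3, triangles for the mice numbered 4 and a line at the group mean. Aqp1 is at 9.65 to 13.33 FPKM in all 6 mice without DSS and at 1.16 to 8.84 in the 6 mice with DSS, while Aqp8 and Aqp4 spread widely within the DSS groups.

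Beginning with the water channels, Aqp8 was at 1080.35, 1257.87 and 476.55 FPKM in the normal mice numbered 1, 3 and 4. In the colitis mice numbered 1, 2 and 4 it was at 488.94, 881.44 and 267.30 FPKM. Both groups ranged widely, and their values overlapped. The group means were 938 ± 410 and 546 ± 311 FPKM (SD, n = 3), a ratio of 0.582. On the log2(FPKM + 0.1) scale, used for every fold change here, the difference was −0.83 (95% confidence interval −2.27 to 0.61, adjusted p = 0.449 by limma, Benjamini-Hochberg over 15315 genes). Within the mice numbered 1 to 3 it was −0.83, and between the mice numbered 4 also −0.83. Its size was not stable. It was −1.43 with the replicate number as a block, past the unadjusted but not the adjusted limit (limma adjusted p = 0.058). It was −0.40 without the colitis mouse numbered 4, and −1.26 without either the normal mouse numbered 4 or the colitis mouse numbered 2. After each mouse was centred on its median it was −0.49. The exact two-sided permutation test gave p = 0.3, where 3 mice against 3 cannot go below 0.1.

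Among colitis mice receiving BBR, Aqp8 was at 2935.01, 521.50 and 664.69 FPKM in the mice numbered 2, 3 and 4. The mouse numbered 2 was the highest of all 12, and the other two lay inside the range of the colitis mice. Against normal mice the log2 difference was 0.22 (95% confidence interval −1.22 to 1.66), 0.09 within the mice numbered 1 to 3 and 0.48 between the mice numbered 4. The group mean was 1374 ± 1354 FPKM (SD, n = 3), 2.52 times that of colitis mice, with a log2 difference of 1.05 (95% confidence interval −0.39 to 2.49, limma adjusted p = 0.954) and an overlap of the groups. Without the mouse numbered 2 the difference was 0.27, so its size rests on that mouse. Within the mice numbered 1 to 3 it was 0.91 and between the mice numbered 4 it was 1.31.

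In normal mice receiving BBR, Aqp8 was at 1355.98, 846.55 and 881.61 FPKM in the mice numbered 1, 3 and 4. These values lay mostly inside the normal range. Against normal mice the log2 difference was 0.21 (95% confidence interval −1.22 to 1.65, limma adjusted p = 1). It was −0.12 within the mice numbered 1 to 3 and 0.89 between the mice numbered 4. The interaction, the BBR difference in colitis minus that in normal mice, was 0.83 for Aqp8 (95% confidence interval −1.20 to 2.87, limma adjusted p = 1.00) and 0.06 without the colitis mouse receiving BBR numbered 2. A difference of BBR response between diseased and healthy bowel was thus neither shown nor bounded closely.

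Aqp8 was also set against 9 markers of surface colonocytes, the cells that carry it. These markers, led by Car4, a membrane carbonic anhydrase, differed by a mean of 0.30 on the log2 scale between colitis and normal mice, and 0 of the 9 were called by adjusted p with 1 higher and 0 lower at an unadjusted P of at most 0.05. Aqp8 minus their mean was 1.99 to 2.44 in normal mice and 0.58 to 1.59 in colitis mice, so the groups did not overlap (difference −1.13, exact permutation p = 0.1). Set against 8 markers of all intestinal epithelium instead, Aqp8 was −0.91 to 0.07 in normal and −1.68 to −0.10 in colitis mice, which overlap (difference −0.72, exact permutation p = 0.2). In colitis mice receiving BBR the value against the surface colonocyte markers was 1.28 to 3.25, which overlaps both groups (difference from colitis mice 1.18, exact permutation p = 0.2). The marker mean in colitis was raised by Slc51b, a bile acid transporter subunit and the 1 marker past the unadjusted limit (2.06). Without it, an alternative chosen after seeing the data, the other 8 markers differed by 0.08 and Aqp8 minus their mean by −0.91 (exact permutation p = 0.1). Another of the 9 markers, Slc26a3, is also in the absorption list below and was itself lower in the mean of colitis mice. Slc51a, which counts in the marker mean with and without Slc51b, averaged only 0.23 FPKM and was at 0 in 4 mice.

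**Figure D2:**
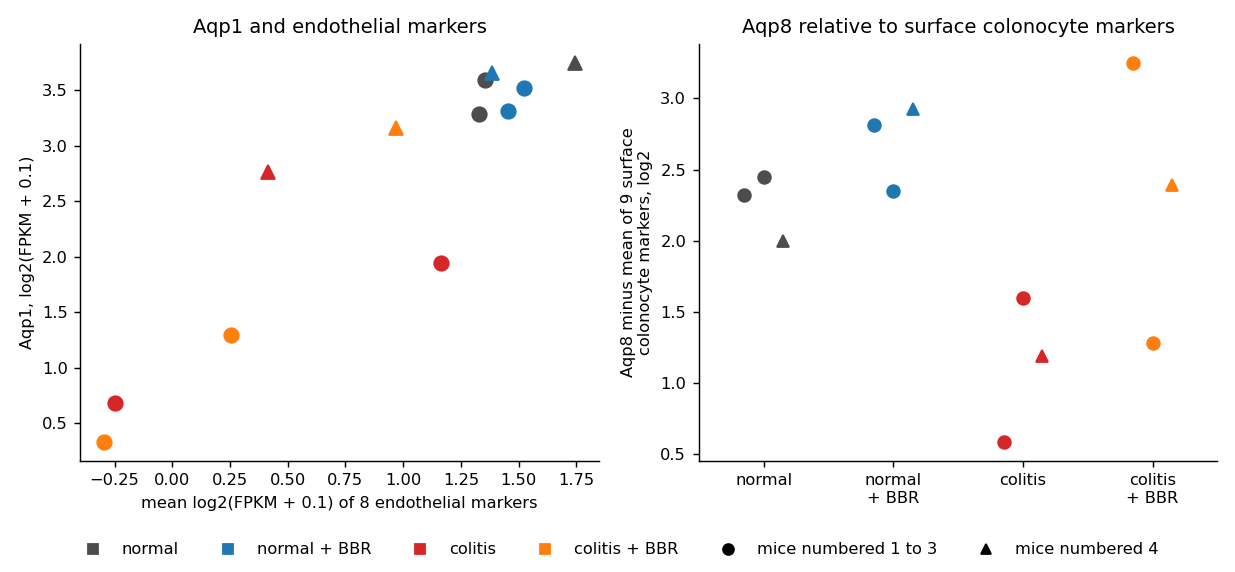
Left, Aqp1 against the mean of 8 endothelial markers, both as log2(FPKM + 0.1), in the 12 mice. Right, Aqp8 minus the mean of 9 surface colonocyte markers on the log2 scale, by group. Colours give the groups, circles the mice numbered 1 to 3 and triangles the mice numbered 4. The 3 colitis mice lie at 0.58 to 1.59 on the right, below the 3 normal mice at 1.99 to 2.44, and on the left 6 mice without DSS sit together at the upper right.

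Aqp4 varied widely within groups. It was at 223.66, 55.13 and 58.11 FPKM in the normal mice numbered 1, 3 and 4, and at 223.99, 26.75 and 225.12 FPKM in the colitis mice numbered 1, 2 and 4. The colitis mice held both a value lower than any normal mouse and values like the highest normal mouse. The highest exceeded the lowest by 4.06 times in normal mice and 8.42 times in colitis mice. The means of 112 ± 96.5 and 159 ± 114 FPKM (SD, n = 3) differed by 0.30 on the log2 scale (95% confidence interval −1.71 to 2.32, limma adjusted p = 0.856), which turned to −0.52 within the mice numbered 1 to 3 and was 1.95 between the mice numbered 4.

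With BBR, Aqp4 was at 19.55, 122.10 and 127.80 FPKM in the colitis mice numbered 2, 3 and 4, and at 74.69, 90.69 and 38.01 FPKM in the normal mice numbered 1, 3 and 4. Both sets overlapped with the mice of the same state without BBR. The log2 difference was −0.71 in colitis (95% confidence interval −2.73 to 1.30) and −0.49 in normal mice (−2.50 to 1.52), with limma adjusted p = 1.00 and 1. Within the mice numbered 1 to 3 and between the mice numbered 4 these were −0.66 and −0.82 in colitis, and −0.43 and −0.61 in normal mice. Each interval includes changes of over 1 log2 unit either way. Colitis mice receiving BBR differed from normal mice by −0.41 (95% confidence interval −2.42 to 1.60), by −1.18 within the mice numbered 1 to 3 and by 1.14 between the mice numbered 4. The interaction was −0.22 (95% confidence interval −3.07 to 2.62, limma adjusted p = 1.00).

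The extremes of Aqp8 and Aqp4 fell in the same 2 mice, in opposite order. The ratio of Aqp8 to Aqp4 ran from 1.19 in the colitis mouse numbered 4, which had the lowest Aqp8 and the highest Aqp4 of all 12, to 150 in the colitis mouse receiving BBR numbered 2, which had the highest Aqp8 and the lowest Aqp4. In normal mice the ratio was 4.83, 22.8 and 8.20, and in colitis mice 2.18, 33.0 and 1.19. With BBR it was 150, 4.27 and 5.20 in colitis and 18.2, 9.33 and 23.2 in normal mice. The ratios of the 4 groups overlapped.

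**Figure D3:**
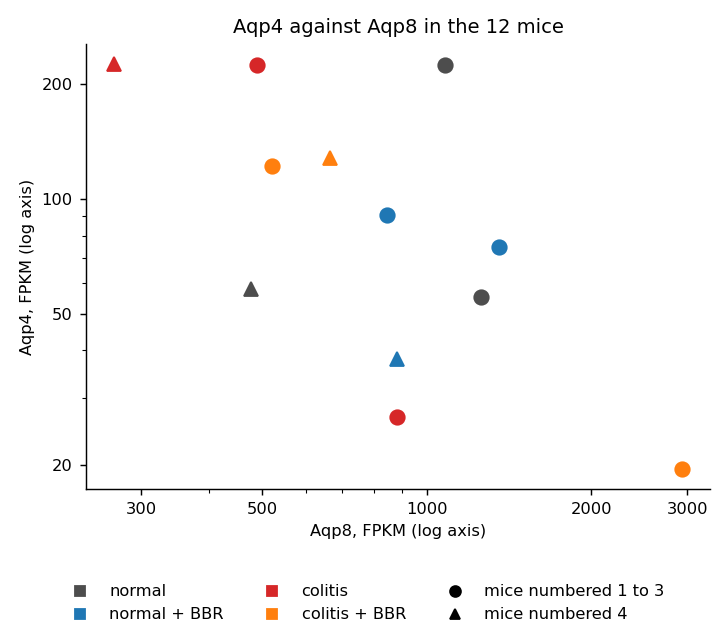
Aqp4 against Aqp8 in the 12 mice, both in FPKM on log axes, with colours for the groups, circles for the mice numbered 1 to 3 and triangles for the mice numbered 4. The colitis mouse numbered 4 (267.30 FPKM of Aqp8, 225.12 of Aqp4) and the colitis mouse receiving BBR numbered 2 (2935.01 and 19.55 FPKM) lie at opposite corners.

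Aqp1, the water channel of vessels and red blood cells, was lower in both groups given DSS. It was at 11.94, 9.65 and 13.33 FPKM in the normal mice numbered 1, 3 and 4, and at 1.51, 3.75 and 6.71 FPKM in the colitis mice numbered 1, 2 and 4. All 3 colitis mice lay below all 3 normal mice. The means were 11.6 ± 1.86 and 3.99 ± 2.61 FPKM (SD, n = 3), a ratio of 0.343, and the log2 difference was −1.74 (SE 0.63, 95% confidence interval −3.12 to −0.36). This passed the study's limit, an unadjusted P of at most 0.05 in limma, but not the adjusted limit (limma adjusted p = 0.157). The exact two-sided permutation test gave p = 0.1, the smallest it can give. Within the mice numbered 1 to 3 limma gave an adjusted p of 0.0488, where 930 of 15043 tested genes passed the adjusted limit. The difference was −2.12 in these mice and −0.98 between the mice numbered 4. Without the colitis mouse numbered 1 it was −1.18 and no longer passed the unadjusted limit.

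In colitis mice receiving BBR, Aqp1 was at 2.36, 1.16 and 8.84 FPKM in the mice numbered 2, 3 and 4. These again all lay below the normal mice, with the mouse numbered 4 nearest to them. The mean was 4.12 ± 4.13 FPKM (SD, n = 3), and the log2 difference from normal mice was −1.94 (95% confidence interval −3.33 to −0.56), past the unadjusted but not the adjusted limit (limma adjusted p = 0.214). It was −2.62 within the mice numbered 1 to 3 and −0.59 between the mice numbered 4. Without the colitis mouse receiving BBR numbered 4 it was −2.72, with a limma adjusted p of 0.0145, where 2900 of 15311 tested genes passed the adjusted limit. Without the colitis mouse receiving BBR numbered 3 the difference was −1.31 (limma adjusted p = 0.516), past neither limit.

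BBR itself came with no called difference in Aqp1. In normal mice receiving BBR the gene was at 9.87, 11.41 and 12.50 FPKM, almost the same range as in normal mice, with a log2 difference of −0.04 (95% confidence interval −1.42 to 1.34), −0.02 within the mice numbered 1 to 3 and −0.09 between the mice numbered 4. The colitis mice with and without BBR differed by −0.20 (95% confidence interval −1.59 to 1.18), but by −0.50 within the mice numbered 1 to 3 and 0.39 between the mice numbered 4, and the interaction was −0.16 (95% confidence interval −2.12 to 1.80). The limma adjusted p was 1.00 or 1 in these 3 comparisons.

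Endothelial markers were set beside Aqp1. All 8 markers had a lower mean log2 level in colitis than in normal mice (median difference −1.07, against −0.32 over all tested genes, of which 73.7% were lower), of which 3 passed the unadjusted limit, against 15.9% of all genes lower, and 0 the adjusted one. In colitis mice receiving BBR against normal mice 8 of 8 were lower (median difference −1.09, against −0.42 over all genes), 5 past the unadjusted limit, against 18.3% of all genes, and 0 past the adjusted one. Their summed level was 26.4 to 30.7 FPKM in normal mice and 26.1 to 29.5 with BBR, against 8.37 to 23.4 FPKM in colitis and 7.39 to 17.1 in colitis with BBR. The highest of them, Pecam1, an adhesion molecule of vessel walls, was at 10.6 ± 0.24 FPKM in normal and 4.21 ± 1.43 in colitis mice (SD, n = 3), a log2 difference of −1.37 (limma adjusted p = 0.0742). Aqp1 minus the mean of the 8 markers was 1.96 to 2.24 in normal and 0.78 to 2.36 in colitis mice, which overlap (difference −0.71, exact permutation p = 0.4). The overlap came from the colitis mouse numbered 4, at 2.36, while those numbered 1 and 2 were at 0.93 and 0.78, below all 6 mice without DSS (1.87 to 2.27). Of the colitis mice receiving BBR, those numbered 2 and 3 were at 1.04 and 0.63 and that numbered 4 at 2.19 (difference from normal mice −0.78, exact permutation p = 0.3). The part of vessel content in the Aqp1 difference was not tested. Red cell genes, 4 of a list of 6, ran from 4.44 to 56.4 FPKM in normal and 18.5 to 332 FPKM in colitis mice, led by the globin gene Hba-a1.

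Aqp11, the divergent member of the endoplasmic reticulum, was also lower with DSS. It was at 12.62, 12.50 and 8.59 FPKM in the normal mice numbered 1, 3 and 4 and at 7.88, 2.94 and 6.23 FPKM in the colitis mice numbered 1, 2 and 4. The groups did not overlap, although the highest colitis mouse came close to the lowest normal mouse. The means were 11.2 ± 2.29 and 5.68 ± 2.52 FPKM (SD, n = 3), a ratio of 0.506, and the log2 difference was −1.06 (SE 0.47, 95% confidence interval −2.09 to −0.03). It passed the unadjusted limit but not the adjusted one (limma adjusted p = 0.221), with an exact permutation p of 0.1. The difference was −1.36 within the mice numbered 1 to 3 and −0.46 between the mice numbered 4. After quantile normalization it was −0.78 and no longer passed the unadjusted limit, so the call at that limit depends on the scaling, whereas Aqp1 kept it at −1.39. The Aqp11 call also ended when any of 4 mice of the 6 was left out, at −0.97 without the normal mouse numbered 1 or 3, −0.65 without the colitis mouse numbered 2 and −1.18 without that numbered 4.

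In colitis mice receiving BBR, Aqp11 was at 3.48, 2.62 and 9.62 FPKM in the mice numbered 2, 3 and 4. The mouse numbered 4 lay within the normal range and the other two well below it. The log2 difference from normal mice was −1.29 (95% confidence interval −2.32 to −0.26), past the unadjusted but not the adjusted limit (limma adjusted p = 0.223). It was −2.02 within the mice numbered 1 to 3 (limma adjusted p = 0.0378) but 0.16 between the mice numbered 4. Without the colitis mouse receiving BBR numbered 4 it was −1.84 (limma adjusted p = 0.0197), and without that numbered 3 it was −0.92 (limma adjusted p = 0.530). Over all tested genes 2262 of 15043 passed the adjusted limit in the mice numbered 1 to 3. Without the colitis mouse receiving BBR numbered 4, 2900 of 15311 did. With each of the 6 mice left out in turn, the Aqp11 difference passed the unadjusted limit 2 times. Normal mice receiving BBR had 6.60, 11.01 and 9.37 FPKM, a log2 difference of −0.33 from normal mice (95% confidence interval −1.36 to 0.70), which was −0.55 within the mice numbered 1 to 3 and 0.12 between the mice numbered 4. Colitis mice with and without BBR differed by −0.23 (95% confidence interval −1.26 to 0.80), by −0.66 within the mice numbered 1 to 3 and by 0.62 between the mice numbered 4, and the interaction was 0.09 (95% confidence interval −1.36 to 1.55). Epithelial markers were nearly level between colitis and normal mice, with a mean log2 difference of −0.11 and 0 of 8 past either limit. Aqp11 minus their mean was −6.69 to −6.34 in normal and −8.28 to −7.08 in colitis mice, with no overlap (difference −0.95, exact permutation p = 0.1). In colitis mice receiving BBR it was −8.54 to −6.57, which overlaps the normal mice (difference −1.09, exact permutation p = 0.3).

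Of the aquaglyceroporins, Aqp3 and Aqp9 were close to the limit of detection. Aqp3, the channel of basolateral membranes in many epithelia, was at 0.04, 0.04 and 0.03 FPKM in normal mice, and with BBR at 0, 0.04 and 0.07. In colitis it was at 0, 0.04 and 0 FPKM, and with BBR at 0.04, 0.13 and 0.06. The worth of 3 reads on Aqp3 was 0.0879 to 0.135 FPKM, a limit that covers counting error only, and all but the value of 0.13 lay under this range. Aqp9, a glycerol channel of liver and white blood cells, was at 0, 0 and 0.02 FPKM in normal mice, and with BBR at 0, 0.03 and 0. In colitis it was at 0.08, 0.05 and 0.07 FPKM, and with BBR at 0.08, 0 and 0.04. The colitis mice lay above the normal mice, yet their values were about those of 3 reads (0.0578 to 0.0848 FPKM), so no fold change is given. Both genes had means under 0.1 FPKM over the 12 mice and were not tested.

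Aqp7, the glycerol channel of fat cells, split by mouse number and not by group. It was at 0, 0 and 0.38 FPKM in the normal mice numbered 1, 3 and 4, and at 0, 0.03 and 0.32 in those receiving BBR. It was at 0, 0 and 0.36 FPKM in the colitis mice numbered 1, 2 and 4, and with BBR at 0.03, 0 and 0.34 in the mice numbered 2, 3 and 4. The 4 mice numbered 4 lay between 0.32 and 0.38 FPKM, above the worth of 3 reads (0.0606 to 0.0893 FPKM), and the other 8 at 0 to 0.03. Aqp7 passed the filter on low values only through these 4 mice, and its fold changes between groups were left out. The fat cell marker Adipoq did not follow this split. It was at 13.05 FPKM in the normal mouse numbered 4, at 0 in the number 4 mice of the normal BBR and colitis groups and at 0.18 in that of the colitis BBR group, but at 7.35 and 4.10 FPKM in the colitis mice receiving BBR numbered 2 and 3, where Aqp7 was at most 0.03. None of the other members separated the mice numbered 4 from the other 8.

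**Figure D4:**
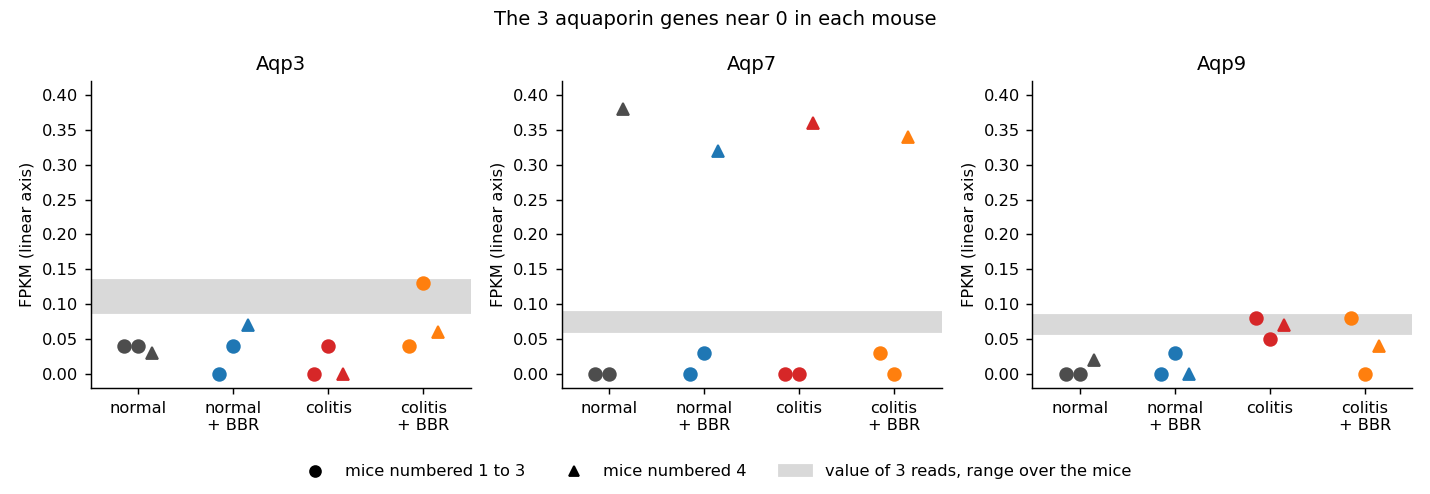
FPKM on linear axes of Aqp3, Aqp7 and Aqp9 in each mouse, by group, with circles for the mice numbered 1 to 3, triangles for the mice numbered 4 and a grey band for the worth of 3 reads over the 12 mice. The 4 triangles of Aqp7 sit at 0.32 to 0.38 FPKM, and the other points of the 3 genes lie in or under the grey band.

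Of the other mouse aquaporins, Aqp5 stayed at or under 0.14, Mip at or under 0.07 and Aqp12 at or under 0.48 FPKM. Aqp2 and Aqp6 are not listed under these symbols among the 17734 genes, so they were not analysed here.

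The filter on low values was passed by 5 members, of which Aqp7 passed only through the mice numbered 4 and was called at neither limit in any comparison. Of the other 4 (Aqp1, Aqp4, Aqp8 and Aqp11), 0 were called by limma's adjusted p between colitis and normal mice, where 1.08% of all tested genes were. At the unadjusted limit 2 were called, both lower, against a background of 21.4% in either direction and 15.9% lower, and these 2 were also the members without overlap, against 29.3% of all genes. Between colitis mice receiving BBR and normal mice 0 passed the adjusted limit (background 0.0196%) and the same 2 genes, Aqp1 and Aqp11, the unadjusted one (20.1%, and 18.3% lower), with no overlap for Aqp1 alone (22.7%). With so few members, a count of 2 is not read as a result about the members. Both comparisons use the same 3 normal mice, so they are not independent of each other. The median log2 difference of the 4 was −0.95 for colitis against normal (−0.83 with Aqp7), where that of all genes was −0.32, and −0.85 for colitis with BBR against normal (−0.41 with Aqp7), where that of all genes was −0.42.

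In both comparisons of BBR with its control no member was called at either limit in the main fit. Under 2 alternatives Aqp8 in colitis passed the unadjusted one. These were quantile normalization (log2 difference 1.202) and the replicate number as a block, given at the end. Between colitis mice with and without BBR the background was 0% by adjusted p and 6.39% by unadjusted P, with 7.08% of genes not overlapping. Between normal mice with and without BBR it was 0%, 1.36% and 9.62%. In the interaction it was 0% by adjusted p and 2.42% by unadjusted P, and no member was called. The 95% intervals around the BBR differences still reached 2.49 for Aqp8 in colitis, so that a rise of over 2 log2 units was within them.

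**Figure D5:**
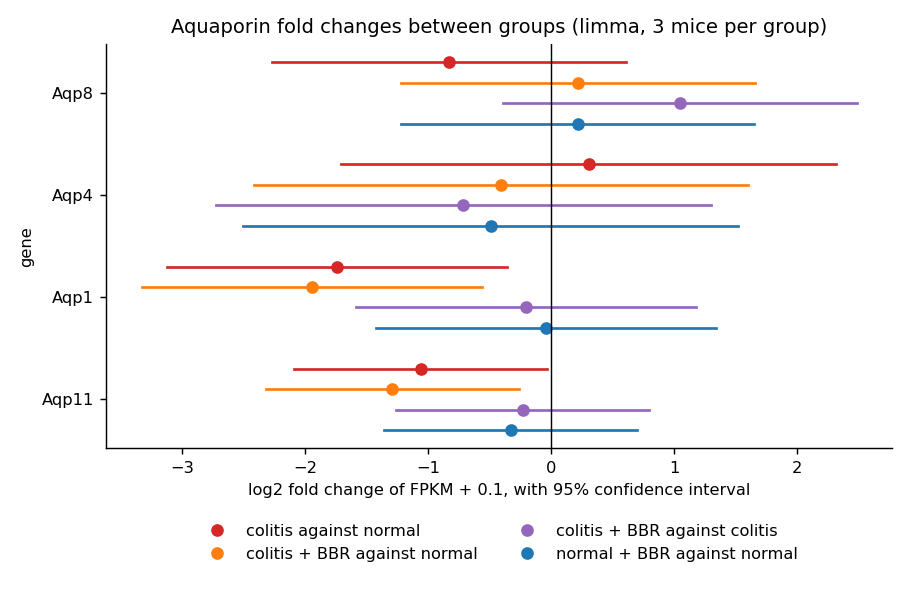
Log2 fold changes of FPKM + 0.1 for Aqp8, Aqp4, Aqp1 and Aqp11 in the 4 comparisons of groups, as points with lines for the 95% confidence interval of limma (3 mice per group). The intervals of Aqp1 and Aqp11 against normal mice end below 0, at −0.36 and −0.03 without and at −0.56 and −0.26 with BBR, and every other interval includes 0.

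Water follows salt, so genes of ion transport were described beside the channels. Over all tested genes 73.7% had a lower mean log2 level in colitis than in normal mice, and 15.9% were lower and 5.56% higher past the unadjusted limit, so the counts below are read against these shares. Of 18 genes of colonic salt and water absorption, 17 had lower mean log2 levels in colitis than in normal mice and 1 higher, with 3 lower past the unadjusted limit and 0 past the adjusted one (median difference −0.73, against −0.32 over all genes). The 3 calls are about the share of all genes. The most abundant was Slc26a3, the chloride and bicarbonate exchanger of surface colonocytes, at 1000 ± 269 FPKM in normal, 426 ± 105 in colitis and 1012 ± 789 in BBR-treated colitis mice (SD, n = 3). Its log2 difference of colitis from normal mice was −1.22 (limma adjusted p = 0.260), and that of colitis with BBR from colitis 0.83 (limma adjusted p = 1.00). In the latter comparison 12 of the 18 genes were higher and 6 lower, with 2 higher past the unadjusted limit, where 38% of all genes were higher and 1.19% past that limit, and 0 past the adjusted one (median 0.29, against −0.09 over all genes).

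Among 9 genes of chloride and potassium secretion, which draws water into the lumen, 8 were lower and 1 higher in the mean of colitis mice, with 3 lower past the unadjusted limit and 0 past the adjusted one (median −1.61). Kcne3, a potassium channel subunit and the most abundant, was at 115 ± 39 FPKM in normal and 64.7 ± 41.2 in colitis mice (SD, n = 3), a log2 difference of −1.02 (limma adjusted p = 0.291). With BBR in colitis 4 of the 9 were higher and 5 lower, and 0 passed either limit. Of 8 tested genes of the response to hypertonicity, 8 were lower, 2 past the unadjusted and 0 past the adjusted limit (median −0.22, above that of all genes). The most abundant of these, Sgk1, a kinase that stimulates sodium uptake, was at 157 ± 72.6 FPKM in normal and 152 ± 119 in colitis mice, with a log2 difference of −0.20 (limma adjusted p = 0.841).

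Genes that handle glycerol, the second cargo of the aquaglyceroporins, held the one adjusted call. Dgat2, which makes triglycerides, rose from 20.4 ± 3.75 FPKM in normal to 78.7 ± 30.6 in colitis mice (SD, n = 3), a log2 difference of 1.88 (SE 0.39, limma adjusted p = 0.0477). It was at 47.4 ± 21.9 FPKM in colitis mice receiving BBR (log2 difference from colitis −0.78, limma adjusted p = 0.828). Adjusted calls between colitis and normal mice numbered 165 over all genes, and 11 to 211 when a mouse of these groups was left out. Whether Dgat2, or the markers called below, kept the call in those fits was not examined. Of the 11 genes of that list 3 were higher and 8 lower in colitis, with 2 higher and 1 lower at the unadjusted limit. Of 11 tested genes of vasopressin and cAMP signalling, which moves some aquaporins to the membrane, 10 were lower and 1 higher, with 2 lower at the unadjusted limit, again about the share of all genes, and 0 at the adjusted one (median −0.81). Vipr1, a receptor for vasoactive intestinal peptide and the most abundant, was at 62.6 ± 6.40 FPKM in normal and 43.6 ± 22.4 in colitis mice, a log2 difference of −0.66 (limma adjusted p = 0.393). No gene of these 5 lists passed the adjusted limit in another comparison.

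Markers of other cell types were summed in the same groups, and their part in the member differences was not tested. Smooth muscle genes, led by Tagln, summed to 1628 to 3039 FPKM in normal and 70.9 to 651 in colitis mice, with 6 of 6 lower past the unadjusted limit. Of 8 neutrophil markers 8 were higher in colitis, 7 past the unadjusted and 2, S100a8 and Mmp8, past the adjusted limit (limma adjusted p = 0.0254 and 0.0375). Their sum of 263 to 708 FPKM in normal and 603 to 4189 in colitis mice was carried by Ly6g. That gene was already at 259 to 707 FPKM in normal mice, so the sum follows Ly6g and not the list. S100a8, a subunit of calprotectin, was at 0 in the normal mice and at 217 ± 168 FPKM (SD, n = 3) in colitis mice. Macrophage markers, led by C1qa, summed to 109 to 153 and 175 to 390 FPKM, with 4 of 8 higher past the unadjusted limit. Goblet cell genes, led by Zg16, summed to 15031 to 34467 FPKM in normal and 9937 to 74595 in colitis mice, with 0 of 7 past either limit. Fat cell genes, led by Fabp4, summed to 23.7 to 228 and 13.9 to 39.1 FPKM, with 0 of 7 tested genes past either limit. Enteric glia genes summed to 59.4 to 76.2 and 45.4 to 66.9 FPKM, mostly Erbb3. Of the 6, 5 were lower, 2 of them past the unadjusted limit, S100b at −1.92 and Sox10 at −1.49. Gfap was higher, at 0.97 ± 0.32 FPKM in normal and 2.37 ± 2.33 in colitis mice (SD, n = 3), a log2 difference of 0.67. Liver genes summed to 41.9 to 76.4 and 11.1 to 24.7 FPKM, mostly Ttr. Of 3 tested, Alb and Ttr fell past the adjusted limit (log2 differences −2.99 and −1.79, limma adjusted p = 0.0276 and 0.0392). Alb was at 1.55 ± 0.70 FPKM in normal and 0.11 ± 0.08 in colitis mice (SD, n = 3), close to the 0.1 added before the logarithm. Apoa1 was higher in colitis, at 0.06 ± 0.10 and 1.19 ± 1.95 FPKM, a log2 difference of 1.74 (limma adjusted p = 0.313).

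Between colitis mice with and without BBR, where Aqp8 had its higher mean, no marker list held an adjusted call. Macrophage markers were lower in 8 of 8, 5 past the unadjusted limit (median −1.04), and summed to 87.7 to 182 FPKM with BBR. Smooth muscle genes were higher in 6 of 6, with 0 past that limit (median 1.70), at 475 to 3435 FPKM, and fat cell genes in 6 of 7, with 2 past it, at 16.7 to 125 FPKM. Neutrophil markers were lower in 8 of 8, with 1 past the unadjusted limit, and goblet cell genes higher in 7 of 7, with 0 past it. Of the 9 surface colonocyte markers 3 were higher and 6 lower, with 0 past it, and the other lists also held 0. Over all genes 1.19% were higher and 5.20% lower past this limit.

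The genes whose levels varied most like a member's over the 12 mice were named by the root mean square difference of their mean-centred log2 values, over 11943 genes with a mean of at least 1 FPKM. Aqp8 lay nearest to Selenop (0.26), a secreted selenium carrier, then Ces2c (0.29), a carboxylesterase, and Htra4 (0.34), while its own values departed from their mean by 0.85. Aqp1 lay nearest to Tbx2 (0.28), a transcription factor of mesenchyme, Peli2 (0.29) and Lama2 (0.30), a laminin chain of basement membranes, against its own departure of 1.17. Aqp11 lay nearest to Tmem41a (0.23), Ccdc28b (0.24) and Gpd1l (0.24), against 0.75. For Aqp4 the nearest genes lay farther off, with Mvd (0.60), an enzyme of sterol synthesis, Ripk2 (0.62), a kinase of bacterial sensing, and Cd177 (0.64), a neutrophil surface protein, against 1.15. Among the expressed members themselves Aqp1 and Aqp11 were the closest pair, at 0.79, and Aqp8 and Aqp4 the farthest apart, at 1.82. These mice share groups and the split of the mice numbered 4, so the likeness is a description of these samples.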

How the data were processed

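Bulk RNA of 12 mice was sequenced, and the labels gave each mouse its group and replicate number. The deposited values, 1 for each gene in each mouse, are taken to be FPKM. Per the labels' processing notes and the study's methods, the authors filtered reads with SOAPnuke and used Bowtie2 2.2.5 and RSEM 1.2.12 on mm9. Labels and methods differ in the library kit and sequencer they name. No scaling between mice was added. Genes with a mean of at least 0.1 FPKM (15315 of 17734) were fitted as log2(FPKM + 0.1) in R 4.3.3 by limma 3.58.1, using group means, 1 shared spread and a trend. Fold changes on this scale understate the change of low genes. The limits were a Benjamini-Hochberg adjusted p under 0.05 and the study's unadjusted P of at most 0.05. Exact permutation tests compared 3 mice with 3. The labels describe separate mice, but give no litter, cage or date. Other steps ran in Python 3.11.15 (SciPy 1.17.1, pandas 2.3.3, NumPy 2.4.6, matplotlib 3.10.9).

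Since counts were not part of the table, the spacing of low values of single-transcript genes gave a depth estimate. The members, lists, markers and tests were chosen with earlier results of these data known. The named-gene rule took the 7 members and other mouse aquaporins, the 3 genes most like each expressed member, the adjusted calls of each pathway list or else its most abundant gene, and the most abundant marker of each marker list. Slc26a3 is also named as a marker shared by 2 lists. Adipoq, Slc51a, Slc51b, S100a8, Mmp8, S100b, Sox10, Gfap, Alb and Apoa1 were named after their values were seen. Alternatives were pseudocounts of 1 and 0.01, no filter or one at a mean of 1, quantile normalization, median centring, scaling every mouse to the same total, only the compared groups, no trend, a block for the mice numbered 4 or for the replicate number, only mice numbered 1 to 3, and each mouse left out in turn. The fits were checked on simulated data.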

Additional observations from a re-analysis of the deposited data

How the results depend on the processing

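Of the 20 fold changes reported for Aqp1, Aqp4, Aqp8 and Aqp11, 8 kept their direction under every alternative run: Aqp1 and Aqp11 in both comparisons with normal mice that involve DSS, Aqp8 in colitis against normal, in colitis with BBR against colitis and in the interaction, and Aqp11 in normal mice with BBR. Of 380 alternative fits, 6 passed the adjusted limit and 36 reversed the sign. Against 0 members called in colitis against normal, 1 was called with a block for the mice numbered 4 (Aqp1, adjusted p = 0.0493) and 1 in the mice numbered 1 to 3 alone (Aqp1, 0.0488). Over all tested genes these 2 fits called 1412 of 15315 and 930 of 15043, against 165 of 15315 in the main fit. Over all alternatives the adjusted p of Aqp1 in this comparison ran from 0.0488 to 0.410 and that of Aqp11 from 0.101 to 0.549. In colitis with BBR against normal, 2 members were called in the mice numbered 1 to 3 alone (Aqp1 at −2.62, adjusted p = 0.0266, and Aqp11 at −2.02, 0.0378) and 0 to 2 when a mouse was left out, 2 without the colitis mouse with BBR numbered 4. Over all tested genes these 2 fits called 2262 of 15043 and 2900 of 15311, against 3 of 15315 in the main fit. The range of adjusted p was 0.0145 to 0.529 for Aqp1 and 0.0197 to 0.556 for Aqp11. The median of all genes in colitis against normal was −0.32 as deposited, −0.05 after quantile normalization and 0.02 after centring, and in colitis with BBR against normal −0.42, −0.01 and 0.07. Same-numbered mice shared part of their deviation from the group means (13 pairs, mean r = 0.34 over genes, 0.50 for number 4 and 0.21 for numbers 1 to 3, lowest 0.08, against −0.10 for different numbers), and the numbers were not taken as pairs. With the replicate number as a block 0 members passed the adjusted limit in each comparison. In colitis against normal the block gave −1.43 for Aqp8 (adjusted p = 0.058), −1.92 for Aqp1 (0.0796), 1.24 for Aqp4 (0.137) and −0.84 for Aqp11 (0.294), so that at the unadjusted limit Aqp8 and Aqp4 were gained and Aqp11 lost. It gave 1.22 for Aqp8 in colitis with BBR against colitis (0.259), gained at the unadjusted limit as it was after quantile normalization (1.202, adjusted p = 0.637), and −0.998 for Aqp11 in colitis with BBR against normal (0.247), lost there. The causes of these moves were not tested.

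The 3 Aqp8 differences that kept their direction varied in size, with −1.26 to −0.40 in colitis against normal, 0.27 to 1.52 in colitis with BBR against colitis and 0.06 to 1.31 in the interaction when a mouse was left out. The sign of the others turned as follows. Aqp4 in colitis against normal was −0.52 in the mice numbered 1 to 3. Aqp8 in normal mice with BBR was −0.12 in the same mice. In colitis with BBR against normal, Aqp8 was −0.20 with the block, and Aqp4 was 0.079 after centring and 0.76 with the block. In the interaction, Aqp4 was 0.015 with the block and Aqp11 −0.11 in the mice numbered 1 to 3. Leaving out each mouse in turn gave −0.21 to 1.33 for Aqp4 in colitis against normal. In colitis with BBR against colitis it gave −1.74 to 0.18 for Aqp4, −0.98 to 0.43 for Aqp1 and −0.78 to 0.14 for Aqp11. In normal mice with BBR it gave −0.22 to 0.48 for Aqp8, −0.84 to 0.17 for Aqp4 and −0.17 to 0.062 for Aqp1. In colitis with BBR against normal it gave −0.56 to 0.69 for Aqp8 and −0.87 to 0.48 for Aqp4, and in the interaction −1.24 to 0.67 for Aqp4, −0.94 to 0.47 for Aqp1 and −0.45 to 0.47 for Aqp11. The interaction has no fit of the compared groups alone. Depth limits Aqp3 and Aqp9, whose values are about those of 3 reads or fewer.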
